A study of Mus musculus with 59 samples.

Results

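Levels of 10 genes of the Notch pathway were followed in RNA sequencing of the mouse prefrontal cortex, with the target gene Nrarp at the centre. The 10 genes were the receptors Notch1, Notch2 and Notch3, the ligands Dll1 and Jag1, and the targets Nrarp, Hes1, Hes5, Hey1 and Hey2. They were picked by name, and Nrarp was picked because it was lower with lithium in these libraries, so values of lithium against vehicle are given for the 10 genes as a description with no test. All 10 were found by gene identifier among the 18088 genes of the table, and all 10 passed the filter on low values. The mice were C57BL/6J, of both sexes, and 25 days old. Mice heterozygous for Ash1l (HT), the gene of a histone methyltransferase, and wild-type mice (WT) had each received fluoxetine, lithium or vehicle in the mother's milk between postnatal days 3 and 24. Every group had 5 libraries, except HT lithium females with 4, which gave 59 libraries in 12 groups. The drug reached the pups through the dam, and neither dams, litters nor doses are labelled, nor is the kind of Ash1l allele, so the p-values speak of library-to-library spread alone, which may be partly technical.

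Notch signalling passes between touching cells. A ligand of the Delta or Jagged family on one cell binds a Notch receptor on its neighbour, proteases then free the intracellular domain of the receptor, and that domain joins the DNA-binding protein RBPJ to switch on target genes. The best known targets encode the Hes and Hey repressors, which hold back differentiation in neural progenitors and shape blood vessels. Nrarp encodes a small ankyrin repeat protein that binds the intracellular domain and dampens the signal, so the gene is both a target and a feedback inhibitor. In the brain Notch1 and Notch2 are used by neural progenitors, glia and endothelium, and Notch3 is best known from the mural cells that wrap small vessels.

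RBPJ is known to bind the letters TGGGAA, so the promoters of 3 targets are shown to compare where these letters lie. The sequences are RefSeq's for GRCm38.p6, each the 250 bases before the annotated gene start, written 5′ to 3′ on the strand of the gene, with TGGGAA or its reverse complement TTCCCA in capitals. Nrarp is on the plus strand (chr2:25180508-25180757), Hes5 on the plus strand (chr4:154960673-154960922) and Hey2 on the minus strand (chr10:30842784-30843033).
Nrarp: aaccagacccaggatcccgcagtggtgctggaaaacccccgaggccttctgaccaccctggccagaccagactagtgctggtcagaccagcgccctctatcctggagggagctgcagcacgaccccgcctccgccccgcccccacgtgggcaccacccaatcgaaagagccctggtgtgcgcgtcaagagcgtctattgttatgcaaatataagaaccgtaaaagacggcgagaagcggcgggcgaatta
Hes5: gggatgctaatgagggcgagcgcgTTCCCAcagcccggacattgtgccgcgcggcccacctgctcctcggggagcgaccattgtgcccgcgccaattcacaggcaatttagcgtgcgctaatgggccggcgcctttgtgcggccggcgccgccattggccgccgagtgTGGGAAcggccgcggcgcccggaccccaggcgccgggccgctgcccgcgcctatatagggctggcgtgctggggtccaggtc
Hey2: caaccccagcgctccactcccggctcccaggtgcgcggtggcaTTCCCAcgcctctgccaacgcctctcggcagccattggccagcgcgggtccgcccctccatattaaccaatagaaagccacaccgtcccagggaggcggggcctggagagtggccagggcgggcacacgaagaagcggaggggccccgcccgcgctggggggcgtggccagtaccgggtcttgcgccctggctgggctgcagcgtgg
In windows from 250 bases before to 50 after the start (300 bases), both strands searched, 25.6% of RefSeq's 32851 promoter windows held TGGGAA and 6.38% held the longer GTGGGAA, which contains it. The table had 9 windows for 8 of the 10 genes, all but Hes1 and Hey1. Hes5 had the letters at position -226 on the other strand and at -82 on its own strand. Hey2 had them at -207 on the other strand and at -3 on its own strand, where the match runs past the start and so is not capitalised above. The windows of Nrarp, Notch1, Notch2, Notch3, Dll1 and Jag1 held no match, which says only that these letters are not in these windows.

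The libraries held between 24.47 and 36.32 M reads (median 27.98 M). Ash1l, the gene altered in HT mice, had 3641 to 4382 normalised counts in 29 HT libraries and 4703 to 6218 in 29 of the 30 WT libraries; the library labelled WT vehicle female replicate 3 had 3557 and so went against its label. All 7 markers of the excitatory neuron list, which also holds the pan-neuronal genes Rbfox3 and Snap25, were detected in every library (summed level 140600 to 257400), while summed markers of the neighbouring striatum ranged from 4157 to 16330. Summed choroid plexus markers reached 7688 in WT vehicle females and at most 1221 in the other groups. Replicate 3 of the WT vehicle females and replicate 2 of the WT vehicle males stood apart in an earlier analysis of these data, and some results that rest on either are also given without both.

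Receptors, ligands and targets were all detected in every library. A level is given as a normalised read count, that is, reads divided by the size factor of the library, and comparisons between genes are per kilobase of the longest annotated transcript. Per kilobase, Hey1 (chromosome 3, 8663359 to 8667256, minus strand) was highest with a median of 658 over the 59 libraries, ahead of Nrarp (chromosome 2, 25180758 to 25183339, plus strand) with 224.7, Hes5 (chromosome 4, 154960923 to 154962371, plus strand) with 202 and Hes1 (chromosome 16, 30064384 to 30067796, plus strand) with 138. Notch1 (chromosome 2, 26457903 to 26516663, minus strand) led the receptors with 97.9 per kilobase, against 71.4 for Notch3 (chromosome 17, 32120820 to 32166852, minus strand) and 61.4 for Notch2 (chromosome 3, 98013527 to 98150361, plus strand). Hey2 (chromosome 10, 30832359 to 30842801, minus strand) had 68.4 per kilobase. The ligands were lowest, with 41.7 per kilobase for Dll1 (chromosome 17, 15367354 to 15376872, minus strand) and 37.7 for Jag1 (chromosome 2, 137081456 to 137116644, minus strand). Positions are from GENCODE M21 on GRCm38. Hey1 was the steadiest, its highest library 1.42 times its lowest, and Hey2 the most variable of the 10 at 5.17 times.

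Nrarp was low in all 4 lithium groups, and its fluoxetine and vehicle libraries overlapped. In HT males its normalised counts were 427, 381, 411, 413 and 410.4 with lithium, against 692, 651, 576, 532 and 639 with vehicle. The lithium libraries lay close together and every one was below every vehicle library. In HT females they were 501, 472, 509.5 and 542 with lithium, against 579, 644, 539.8, 611 and 726 with vehicle, so that the highest lithium library just passed the lowest vehicle library. In WT males they were 421, 482, 465, 532 and 473 with lithium, against 516, 527, 729, 740.3 and 662 with vehicle. In WT females they were 572, 547, 496, 419 and 575 with lithium, against 687, 613, 626, 593 and 557 with vehicle. In both WT sexes the ranges overlapped at their edges. All 19 lithium libraries were below the vehicle mean of their own genotype and sex, which held for 0.576% of all tested genes.

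Across the 12 groups, the 4 lithium groups had the 4 lowest Nrarp means. From the lowest, these were 408.5 ± 16.7 in HT lithium males (SD, n = 5), 474 ± 39.7 in WT lithium males (n = 5), 506 ± 28.9 in HT lithium females (n = 4) and 522 ± 65.5 in WT lithium females (n = 5). The vehicle and fluoxetine means then ran from 615 ± 47.9 in WT vehicle females to 684 ± 97.0 in HT fluoxetine males. Of the 11 pairs of neighbours in this order, 9 were closer than the larger of their SDs. The order within those pairs is not read, and the gaps were not tested, so equal means are not shown.

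**Figure D1:**
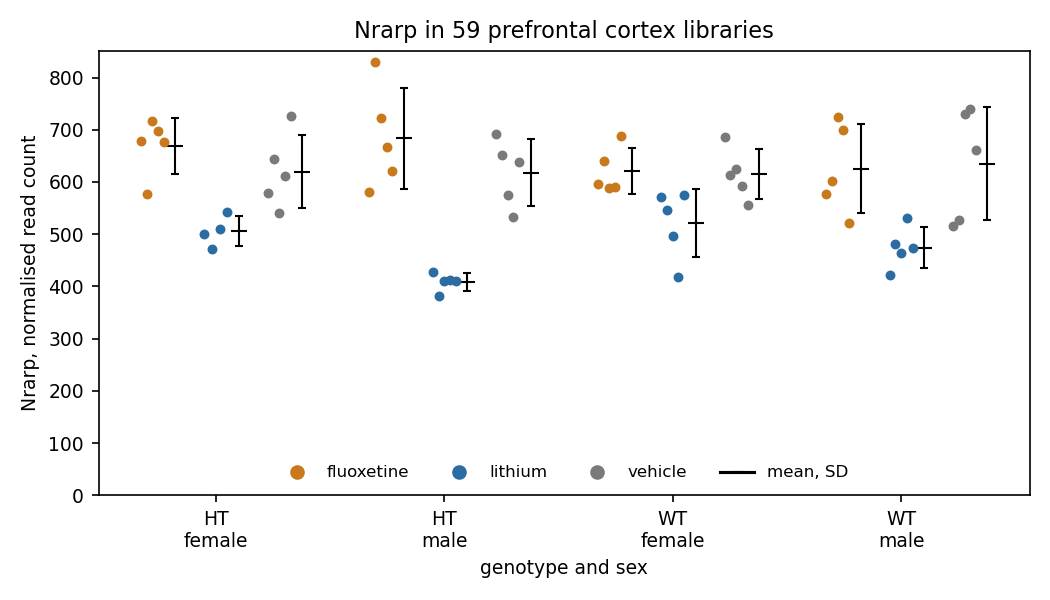
Nrarp in each of the 59 libraries, as normalised read count, by genotype and sex; points are libraries coloured by drug, bars are the mean and SD of 4 or 5 libraries. The lithium points lie low in each set, between 381 and 575, and in HT males they are clear of the vehicle points. In the other sets the highest lithium points pass the lowest vehicle points.

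On the log2(normalised count + 1) scale, Nrarp was lower with lithium by an average of -0.38 ± 0.05 (log2 fold change ± SE, limma, here a description), a fold of 0.767, and by -0.41 without the WT vehicle libraries that stood apart. By genotype and sex the differences were -0.59 ± 0.10 in HT males, -0.41 ± 0.10 in WT males, -0.29 ± 0.10 in HT females and -0.24 ± 0.10 in WT females. In bulk RNA, fewer cells of a type and less RNA per cell cannot be told apart. The other 9 genes mostly leaned the same way. Of the 10 genes, 9 had an average difference below 0, with a median of -0.26 against 0.0039 for all tested genes. The choice of the genes used this contrast, and nothing is read from that count.

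Among the Hes and Hey repressors, Hes1 averaged -0.30 ± 0.08 with lithium. In WT females Hes1 had 168, 193, 152, 199 and 151 counts with lithium, against 279, 286, 264, 219 and 224 with vehicle. Those ranges did not overlap, while in HT females the mean was 211 with lithium against 210.3 with vehicle. The fluoxetine libraries of WT females, 186.8 to 207.8 for Hes1, were also wholly below the same vehicle libraries. For fluoxetine the share of all genes with such ranges was not counted, so nothing is read from this. The Hes1 mean of WT vehicle females, 254.3, was the highest of the 12 groups. Hes5 averaged -0.21 ± 0.09, and in HT males its counts were 227, 173, 238, 220.2 and 162 with lithium, against 244, 341, 300.2, 256 and 334 with vehicle. Hey1 averaged -0.13 ± 0.03, and in HT males it had 1424, 1291, 1389, 1424 and 1434 with lithium, against 1746, 1676, 1672, 1753 and 1535 with vehicle. Both Hes5 and Hey1 were thus clear of their vehicle libraries in HT males, as Nrarp was, but not in the other sets. Hes5 had -0.07 ± 0.19 in HT females, -0.31 ± 0.18 in WT females and 0.07 ± 0.18 in WT males. Hey1 had 0.03 ± 0.07, -0.19 ± 0.07 and -0.10 ± 0.07 in the same sets. For each gene 14 of 19 lithium libraries were below their vehicle mean, against 19 of 19 for Nrarp. With lithium, ranges fully below the vehicle libraries occurred for 1.68% of all genes in HT males and for 3.22% in WT females. Hey2 averaged -0.35 ± 0.14, with the widest spread, since its vehicle libraries ran from 122 to 450.2.

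The ligands and receptors differed among themselves. Jag1, a ligand known from vessel cells, averaged -0.28 ± 0.07 with lithium; in HT females it had 212, 156, 153 and 162 counts with lithium, against 228.5, 217, 248, 251.5 and 274 with vehicle. There the ranges did not overlap, which held for 3.38% of all genes in HT females. In HT males, by contrast, 2 of 5 lithium libraries were below the vehicle mean of Jag1. In WT males none of the 10 genes had lithium libraries wholly below the vehicle libraries (0.934% of all genes). Dll1, the ligand that newborn neurons show to progenitors, averaged -0.25 ± 0.11, and 16 of 19 lithium libraries were below their vehicle mean, as for Jag1 and Hes1.

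Notch3 averaged -0.26 ± 0.07. In WT females it had 549, 505, 533, 484 and 481.5 counts with lithium, against 809.7, 622, 920.3, 710.5 and 691 with vehicle. The ranges did not overlap, and the highest vehicle library, 920.3, was replicate 3, which stood apart. In all, 18 of 19 lithium libraries were below their vehicle mean of Notch3. Notch2 averaged -0.22 ± 0.11, from -0.67 ± 0.24 in HT females to 0.20 ± 0.22 in WT females. Notch1 averaged 0.03 ± 0.08, with 9 of 19 lithium libraries below their vehicle mean, and was the one gene of the 10 with a value above 0; it was -0.0053 after removal of trends with GC content and length and -0.0033 without HT lithium female replicate 1.

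**Figure D2:**
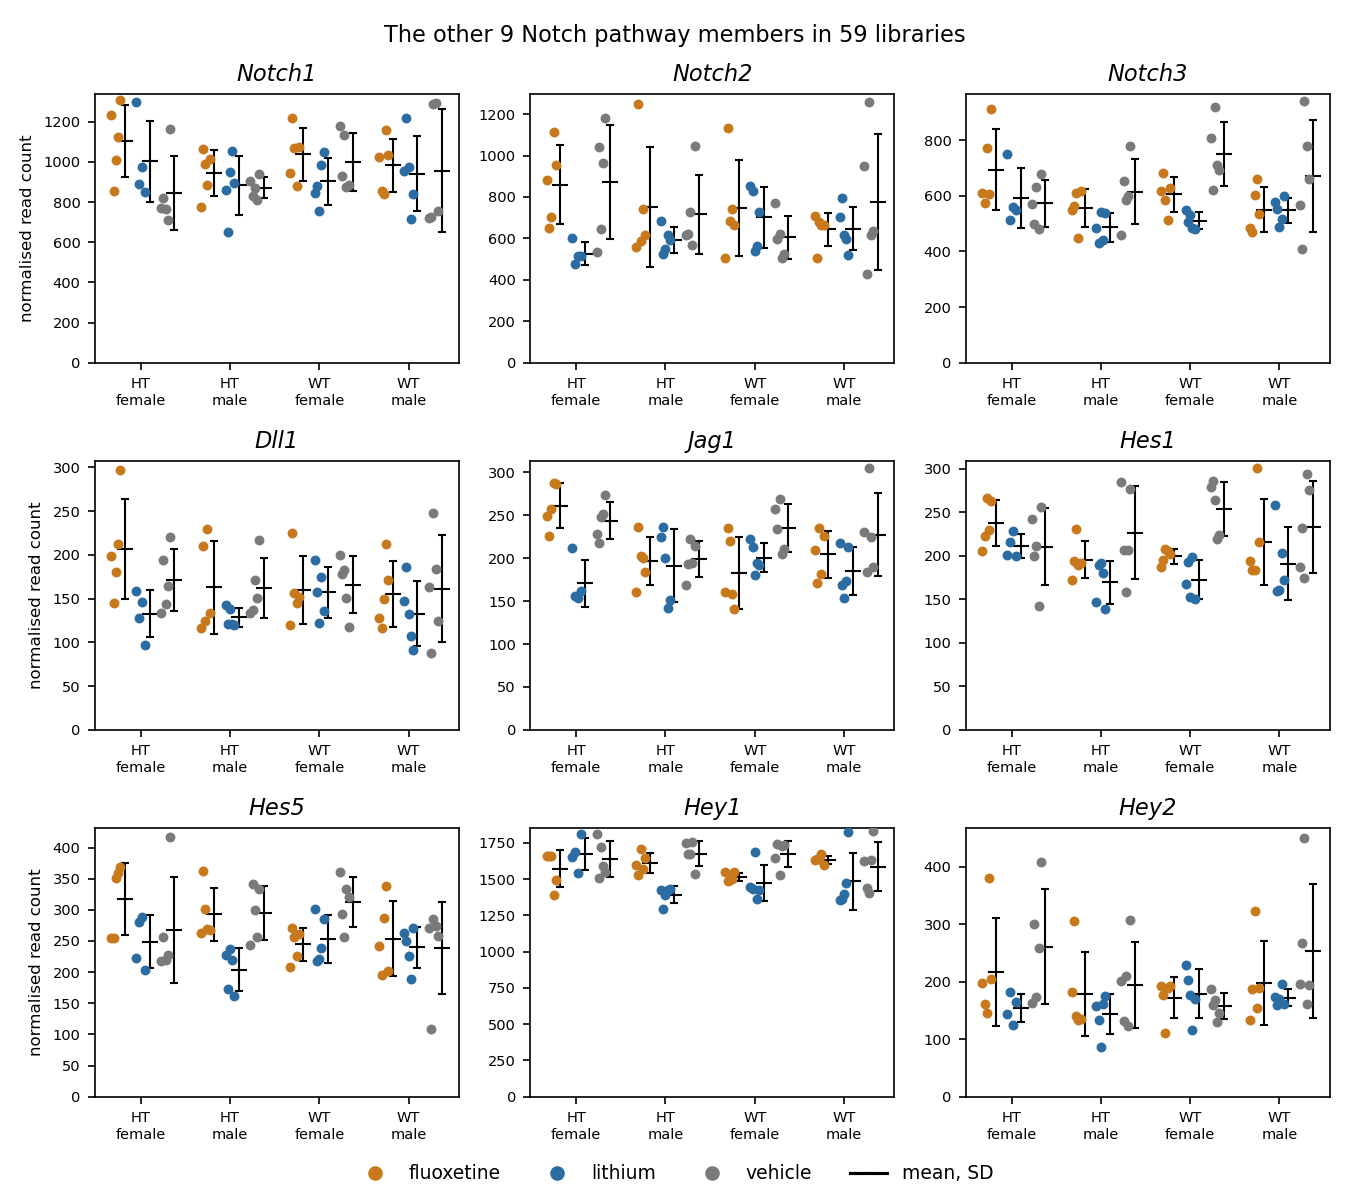
Normalised read counts of the other 9 genes in the 59 libraries, by genotype and sex; points are libraries coloured by drug, bars are means and SDs of 4 or 5 libraries. Lithium points lie low for Hes1, Hey1 and Notch3 in several sets, whereas Notch2 and Hey2 spread widely in the vehicle sets, up to 1258 and 450.2.

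Whether the lithium difference itself changed with sex or genotype was tested, since the choice of genes did not use it. For Nrarp the difference was 0.23 ± 0.10 greater in females than in males, that is, nearer to 0 in females (limma, adjusted p = 0.80, unadjusted p = 0.0226), and -0.11 ± 0.10 for HT against WT (adjusted p = 0.72). Neither passed. None of the 10 genes passed for either interaction, where 0.0% of all genes were called; 1 of 10 had an unadjusted p under 0.05 in each, Nrarp by sex and Notch2 by genotype (-0.47 ± 0.23, adjusted p = 0.51). Without both libraries that stood apart, Nrarp had 0.27 ± 0.10 by sex (limma, adjusted p = 0.9999, unadjusted p = 0.00993). By genotype, Notch2 then had -0.38 ± 0.22 (unadjusted p = 0.0952) and Notch3 0.30 ± 0.13 (unadjusted p = 0.0286). Again 0 of 10 passed for either interaction. Over all genes 1041 had an unadjusted p under 0.05 by sex and 1700 by genotype, and edgeR called 0 in each, DESeq2 2 and 5.

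Fluoxetine, a serotonin reuptake inhibitor, is the second drug of the study and was compared with the same vehicle libraries. None of the 10 genes passed the threshold (0 of 10; 13.5% of all genes were called, limma), and edgeR and DESeq2 also called 0 of the 10. Nrarp had a lowest, median and highest count of 521.5, 653 and 829 in the 20 fluoxetine libraries, against 516, 619.5 and 740.3 in the 20 vehicle libraries, and the ranges overlapped nearly throughout. Its average difference was 0.06 ± 0.05 (limma, adjusted p = 0.42). Notch1 had 774, 1021 and 1308 with fluoxetine, against 710.5, 873 and 1296 with vehicle, a difference of 0.16 ± 0.08 (limma, adjusted p = 0.15). It was the one gene of the 10 with an unadjusted p under 0.05, which 5016 of all 17875 tested genes had. Of the other receptors and ligands, Notch2 (0.04 ± 0.11) and Dll1 (0.04 ± 0.11) had values just above 0, and Notch3 (-0.10 ± 0.07) and Jag1 (-0.11 ± 0.07) below 0. Among the targets Hes1 had -0.11 ± 0.07, Hey1 -0.05 ± 0.03, Hey2 -0.15 ± 0.13 and Hes5 0.01 ± 0.09. The 10 genes split 5 above and 5 below 0 with a median of -0.02, and Hes5 was just below 0 with edgeR and DESeq2. Gm17276, annotated on the strand opposite to Notch3, had a median of 30.2 counts against 573 for Notch3 and rose with fluoxetine (0.34 ± 0.11, adjusted p = 0.0236); how reads were assigned by strand is not given in the sources used here, so reads of an overlapping pair may be shared. For Notch1 and 0610009E02Rik, and for Hes5 and Gm20421, the opposite gene had medians of 26.1 and 5.44.

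The fluoxetine difference did not pass for a dependence on genotype (0 of 10 genes; 0.0392% of all genes were called) or on sex (0 of 10; 0.425%). For genotype, Notch3 (0.34 ± 0.14, adjusted p = 0.30) and Jag1 (0.30 ± 0.14, adjusted p = 0.35) had an unadjusted p under 0.05, and for sex none of the 10 did. Of all 17875 tested genes, 2231 had such a p by genotype and 2041 by sex. Without both libraries that stood apart, Hes5 by genotype (0.41 ± 0.15) and Notch3 by sex (0.29 ± 0.13) also had one, and 0 of 10 passed (limma). Within HT females (0.0% of all genes called), WT females (2.85%), HT males (5.74%) and WT males (0.85%), fluoxetine against vehicle called none of the 10. At an unadjusted p under 0.05 stood Notch1 in HT females (0.39 ± 0.15) and Jag1 (-0.38 ± 0.14), Hes1 (-0.34 ± 0.15), Notch3 (-0.30 ± 0.14) and Hey1 (-0.14 ± 0.07) in WT females. Of all 17875 tested genes, 1370 had such a p in HT females and 2939 in WT females (limma). Without both libraries that stood apart, Notch3 had -0.23 ± 0.13 (unadjusted p = 0.0981) and Hes5 -0.42 ± 0.16 (unadjusted p = 0.00971) in WT females, Notch3 had -0.40 ± 0.13 (unadjusted p = 0.0041) in WT males, and 0 of 10 passed in either set (limma).

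**Figure D3:**
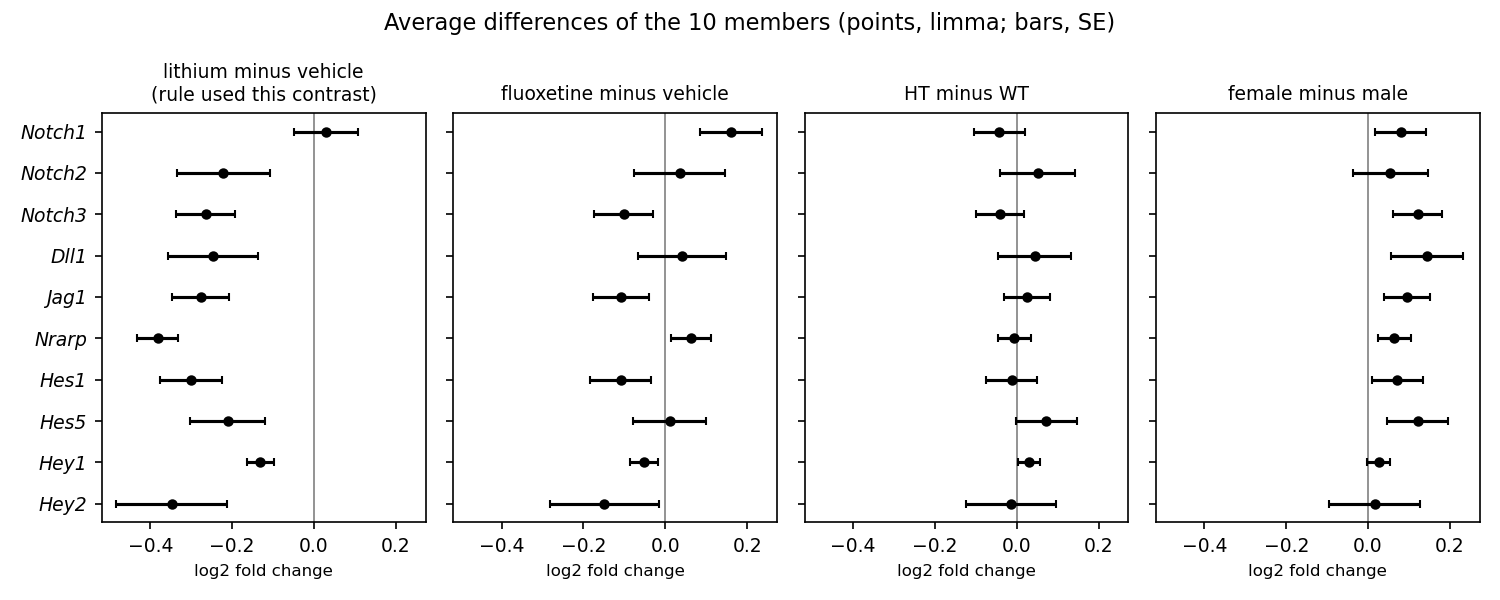
Average log2 fold changes of the 10 genes with SE (bars) for lithium against vehicle, fluoxetine against vehicle, HT against WT, and female against male. Lithium values lie below 0 for all but Notch1 (0.03, and -0.0053 after removal of trends with GC content and length) but were part of how the genes were chosen; fluoxetine and HT against WT values lie on both sides of 0, female against male has all 10 above 0 (Hey2 just below with edgeR and DESeq2), and no gene passed in these 3 sets.

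None of the 10 genes passed the test between genotypes. Averaged over drugs and sexes, HT against WT gave 0 of 10 genes called and 0 with an unadjusted p under 0.05, where 0.358% of all genes were called (limma; edgeR and DESeq2 also 0 of 10). Nrarp ranged from 381 to 829 with a median of 580.1 in 29 HT libraries, and from 419 to 740.3 with a median of 583 in 30 WT libraries, a difference of -0.01 ± 0.04 (adjusted p = 0.99). The 10 differences ran from -0.04 (Notch1) to 0.07 ± 0.07 (Hes5, adjusted p = 0.89). Between the sexes 0 of 10 genes passed (0.117% of all genes; edgeR and DESeq2 also 0 of 10), with all 10 differences of female against male above 0, from 0.02 ± 0.11 for Hey2 to 0.14 ± 0.09 for Dll1, and Hey2 just below 0 with edgeR and DESeq2. Notch3 had a median of 606 in females against 559 in males, and was the one gene with an unadjusted p under 0.05 (0.12 ± 0.06, adjusted p = 0.39; 0.08 ± 0.05, unadjusted p = 0.13, without both libraries that stood apart). No gene of the 10 passed for a genotype difference that depended on sex (0.822% of all genes). There Hey2 had 0.52 ± 0.22 (limma, adjusted p = 0.22, unadjusted p = 0.0232). Of all 17875 tested genes, 1448 had an unadjusted p under 0.05 for genotype, 2209 for sex and 2903 for this dependence.

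Within single drug and sex strata 1 of the 10 genes passed for genotype, Jag1 in fluoxetine females. Its counts were 249, 225, 257, 288 and 287 in HT fluoxetine females, against 161, 235, 220.4, 159 and 140.3 in WT fluoxetine females. The HT libraries were high and close together, and 1 WT library lay within their range. The difference was 0.53 ± 0.14 (limma, adjusted p = 0.0258), where 1.95% of all genes were called and all 10 genes had a value above 0 (median 0.24). The call was lost in a fit of only the compared libraries (adjusted p = 0.0898) and without any one of 6 libraries: HT fluoxetine female replicate 3, 4 or 5 (adjusted p = 0.065, 0.11 and 0.0794) or WT fluoxetine female replicate 1, 4 or 5 (adjusted p = 0.0751, 0.0651 and 0.108). Summed immature neuron markers were 7318 to 14850 in HT and 3831 to 13160 in WT fluoxetine females, and summed endothelial markers 9923 to 12520 in HT and 9184 to 10950 in WT; their part in the Jag1 difference was not tested. In vehicle females 6.2% of all genes were called, and 4059 of 17875 had an unadjusted p under 0.05 (limma). There 0 of 10 genes passed, with such a p for Notch3 (-0.39 ± 0.14), Hey2 (0.65 ± 0.27) and Notch2 (0.48 ± 0.22). Without both libraries that stood apart these had -0.31 ± 0.13, 0.67 ± 0.29 and 0.50 ± 0.23, Hes5 (-0.33 ± 0.16) joined them at an unadjusted p of 0.0395, and 0 of 10 passed (limma). The vehicle males (0.00559%), lithium females (0.00559%), fluoxetine males (0.386%) and lithium males (0.00559%) also gave 0 of 10. At an unadjusted p under 0.05 (limma) stood Hey1 in lithium females (0.19 ± 0.07, adjusted p = 0.57, unadjusted p = 0.0115). Hes5 did so in vehicle males (0.37 ± 0.18, unadjusted p = 0.0461), but not without both libraries that stood apart (0.11 ± 0.16, unadjusted p = 0.50). Nrarp in HT lithium males, the lowest group, had -0.21 ± 0.10 against WT lithium males (adjusted p = 0.9999, unadjusted p = 0.0345). Of all 17875 tested genes, 1367 had an unadjusted p under 0.05 in lithium females, 1240 in vehicle males and 662 in lithium males.

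The 10 genes did not form 1 block when libraries were compared within their groups. Each group mean was subtracted, so drug, genotype and sex do not enter, and Pearson's r over the 59 libraries is given as a description, since these libraries share dissection, depth and normalisation. Notch2 and Dll1 went together most (r = 0.78), and both followed the summed immature neuron markers (0.86 and 0.70) and inhibitory neuron markers (0.80 and 0.74), and ran against excitatory neuron markers (-0.70 and -0.66). Notch1 went with Dll1 (0.66), and its highest r with a marker sum was with oligodendrocyte precursor markers (0.69). It had 0.65 with inhibitory neuron, 0.58 with oligodendrocyte and 0.51 with striatum markers, and -0.49 with excitatory neuron markers. Nrarp went most with Hes5 (0.50), then Notch2 (0.47), Hey2 (0.45) and Notch1 (0.44), and least with Jag1 (0.19), Hes1 (0.19) and Hey1 (-0.04). Hes1 stayed apart, with no r beyond 0.20 with the other 9. Hey1 ran against Dll1 (-0.53) and Notch2 (-0.49), and with excitatory neuron markers (0.64). Notch3 was the gene most tied to endothelial (0.41) markers and had 0.40 with mural markers, next to 0.43 for Jag1 and mural markers. The highest r of Notch3 with a marker sum was with meningeal fibroblast markers (0.46). For Nrarp the endothelial and mural values were 0.20 and 0.09, and its highest r with a marker sum was with immature neuron markers (0.42).

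**Figure D4:**
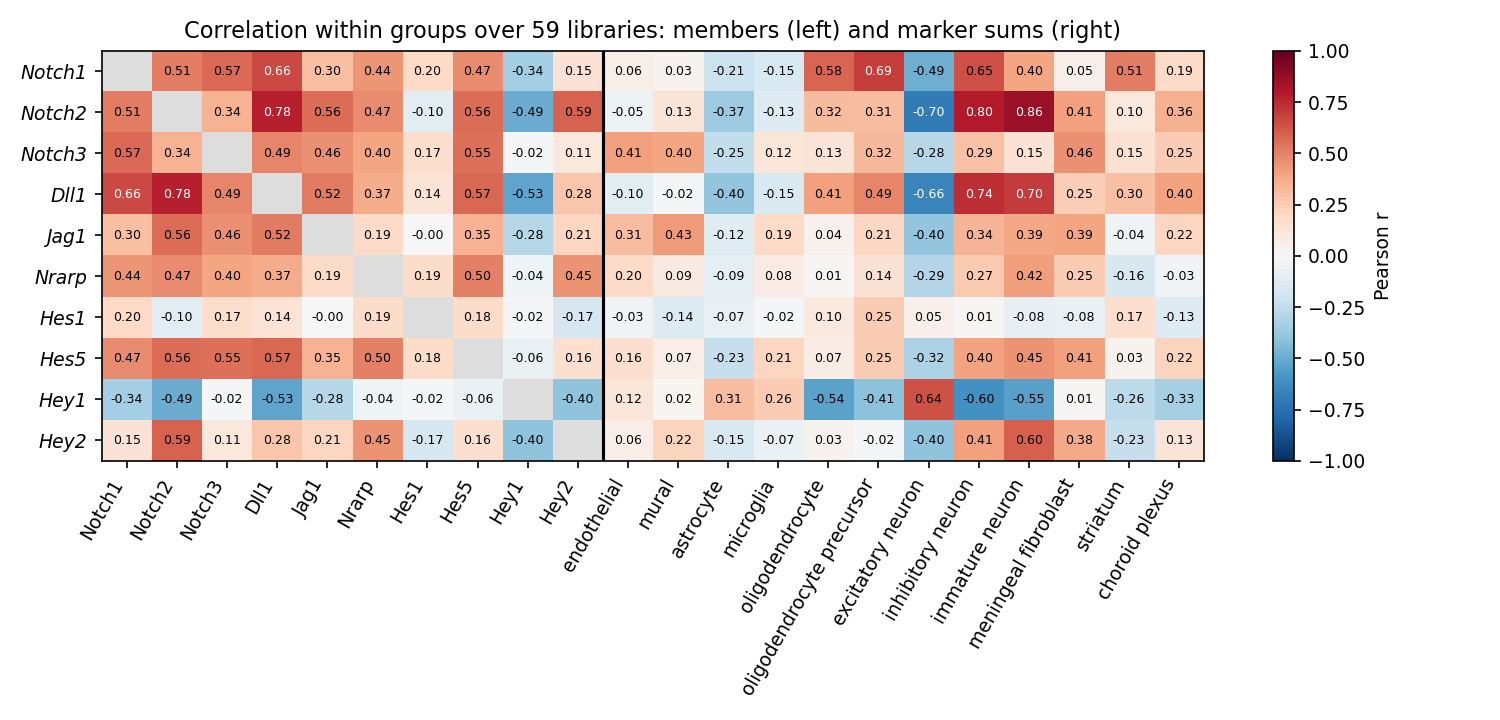
Pearson r within groups over 59 libraries between the 10 genes (left block) and between each gene and the summed markers of 12 cell types or regions (right block); red is positive, blue negative. Notch2 with immature neuron markers (0.86) is the deepest red, and Hey1 has the opposite sign there (-0.55).

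Some cell markers were called with the drugs as well, where 13.1% of all genes were called with lithium and 13.5% with fluoxetine. A list with 1 call of 10 is thus not above that share. Of 12 endothelial markers, 10 fell with lithium and 1 rose, Ly6c1 (0.16 ± 0.05, adjusted p = 0.0369), with the largest fall in Tek, the angiopoietin receptor (-0.34 ± 0.05, adjusted p = 1.85e-05); 9 of 12 fell with fluoxetine. Their median differences were -0.20 with lithium and -0.23 with fluoxetine. The summed endothelial level was 9034 to 11870 (median 10460) with lithium, 7836 to 12520 (median 10180) with fluoxetine and 10180 to 15530 (median 11890) with vehicle, and none of the 12 was at 0 in any library. Of 10 mural markers 1 fell with lithium, Rgs5 (-0.27 ± 0.06, adjusted p = 0.00108), and the summed level was 6671 to 8715 with lithium against 7239 to 11680 with vehicle. Of 8 meningeal fibroblast markers 4 fell with lithium. Of 10 astrocyte markers 1 rose and 3 fell with each drug. The 6 immature neuron markers gave no call with either drug (0 at adjusted p under 0.05), with sums of 3587 to 14080 (median 4977) with lithium, 3831 to 15900 (median 6372) with fluoxetine and 3016 to 20100 (median 6412) with vehicle. Their part in the levels of Nrarp, Notch2, Notch3 and the other genes was not tested. Lithium and fluoxetine share their vehicle libraries, so that the same marker list falling with both is not 2 independent results.

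The genes whose pattern was most like that of Nrarp were sought among 14850 genes. Over the 12 group means, the highest r with Nrarp was held by Perm1 (0.93), Pnma1 (0.92), Nim1k (0.92), Nwd2 (0.92) and D7Bwg0826e (0.92), none of them a gene of the Notch lists used here. Among the other 9 genes, Dll1 came nearest by this measure (0.79, rank 141) and Notch1 was farthest (0.35). Over the 59 libraries within groups, the highest were Lama5 (0.56), Cmtm7 (0.56), Gpr153 (0.56), Hbp1 (0.55) and Heyl (0.55), a Notch target of the Hey family; Hes5 ranked 26 and Notch2 58. The points share the lithium groups in the first measure and library quality in the second.

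Beyond the 10 genes, 49 other genes of the pathway were tested, grouped by what their products do, and here lithium was tested too. With lithium 3 rose and 7 fell (13.1% of all genes were called), and with fluoxetine 1 rose and 4 fell (13.5% of all genes). Among those that fell with lithium, 4 belonged to the 8 corepressors of the pathway: Bend6 (-0.23 ± 0.05, limma, adjusted p = 0.00176), Hdac2 (-0.18 ± 0.04, adjusted p = 0.0032), Tle1 (-0.13 ± 0.04, adjusted p = 0.011) and Hdac1. Bend6 had 2372, 3003 and 3603 counts (lowest, median, highest) with lithium, against 2505, 3590.0 and 4544 with vehicle, so the groups overlapped broadly. The coactivator Maml2 (-0.23 ± 0.07, adjusted p = 0.0232) fell too. Heyl had 79.8, 123 and 222 counts with lithium, against 91.1, 169 and 418 with vehicle, a difference of -0.47 ± 0.16 (adjusted p = 0.0403). How that call holds in other fits is not given here. With fluoxetine Heyl had 151, 221 and 426 counts and leaned the other way (0.41 ± 0.16, limma, adjusted p = 0.0663). In HT males it was called higher with fluoxetine (1.04 ± 0.31, adjusted p = 0.0356). Hdac1, Maml2 and Heyl lie outside the rule for naming genes and are named here after their values were seen.

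Some genes whose products cut or hand over the receptor or its ligands were called, where 13.1% of all genes were called with lithium and 13.5% with fluoxetine. These calls are given gene by gene and are not read as a change of the class. Adam17, a protease that can shed Notch receptors, had 526, 622 and 725 counts with lithium and 468, 584 and 736 with fluoxetine, against 600.5, 673 and 782 with vehicle. It fell with both, at -0.14 ± 0.04 with lithium (adjusted p = 0.0144) and -0.22 ± 0.04 with fluoxetine (adjusted p = 0.00022). Ncstn, which encodes the nicastrin subunit of gamma-secretase, rose with both (0.09 ± 0.03 with lithium, adjusted p = 0.0138; 0.10 ± 0.03 with fluoxetine, adjusted p = 0.00917), and both calls were lost after removal of trends with GC content and length (adjusted p = 0.0693 and 0.102). Aph1b, another gamma-secretase subunit, rose with lithium (0.18 ± 0.05, adjusted p = 0.0188). Its near-identical copy Aph1c may take part of its reads, so the value of Aph1b is uncertain. Among single sets it was called with lithium in WT females (0.52 ± 0.11, limma, adjusted p = 0.00783). Their vehicle libraries were low, with 556 to 827 counts against 823 to 1262 in HT vehicle females. The lowest, 556, was replicate 3, whose Ash1l level went against its label. Mib2, a ligase that drives uptake of ligands, rose with lithium (0.14 ± 0.05, adjusted p = 0.0351), a call lost without any one of 10 libraries.

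Neurl1b, a ligase of ligand uptake, had 1431, 1972 and 2439 counts with fluoxetine, against 1545, 2497 and 2921 with vehicle, and fell (-0.28 ± 0.06, adjusted p = 0.00045). Numb, an inhibitor of the receptor, fell with fluoxetine (-0.16 ± 0.04, adjusted p = 0.00587). Itch, a ligase that marks receptors for breakdown, fell with fluoxetine (-0.11 ± 0.04, adjusted p = 0.0403), a call lost without any one of 18 libraries, in a fit of only the compared libraries (adjusted p = 0.0762) and after removal of trends with GC content and length (-0.07, adjusted p = 0.097). Both drugs were set against the same vehicle libraries, and these values stand side by side without a test of the difference between drugs. For HT against WT and for female against male, averaged over the other factors, 0 of the 49 passed.

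**Figure D5:**
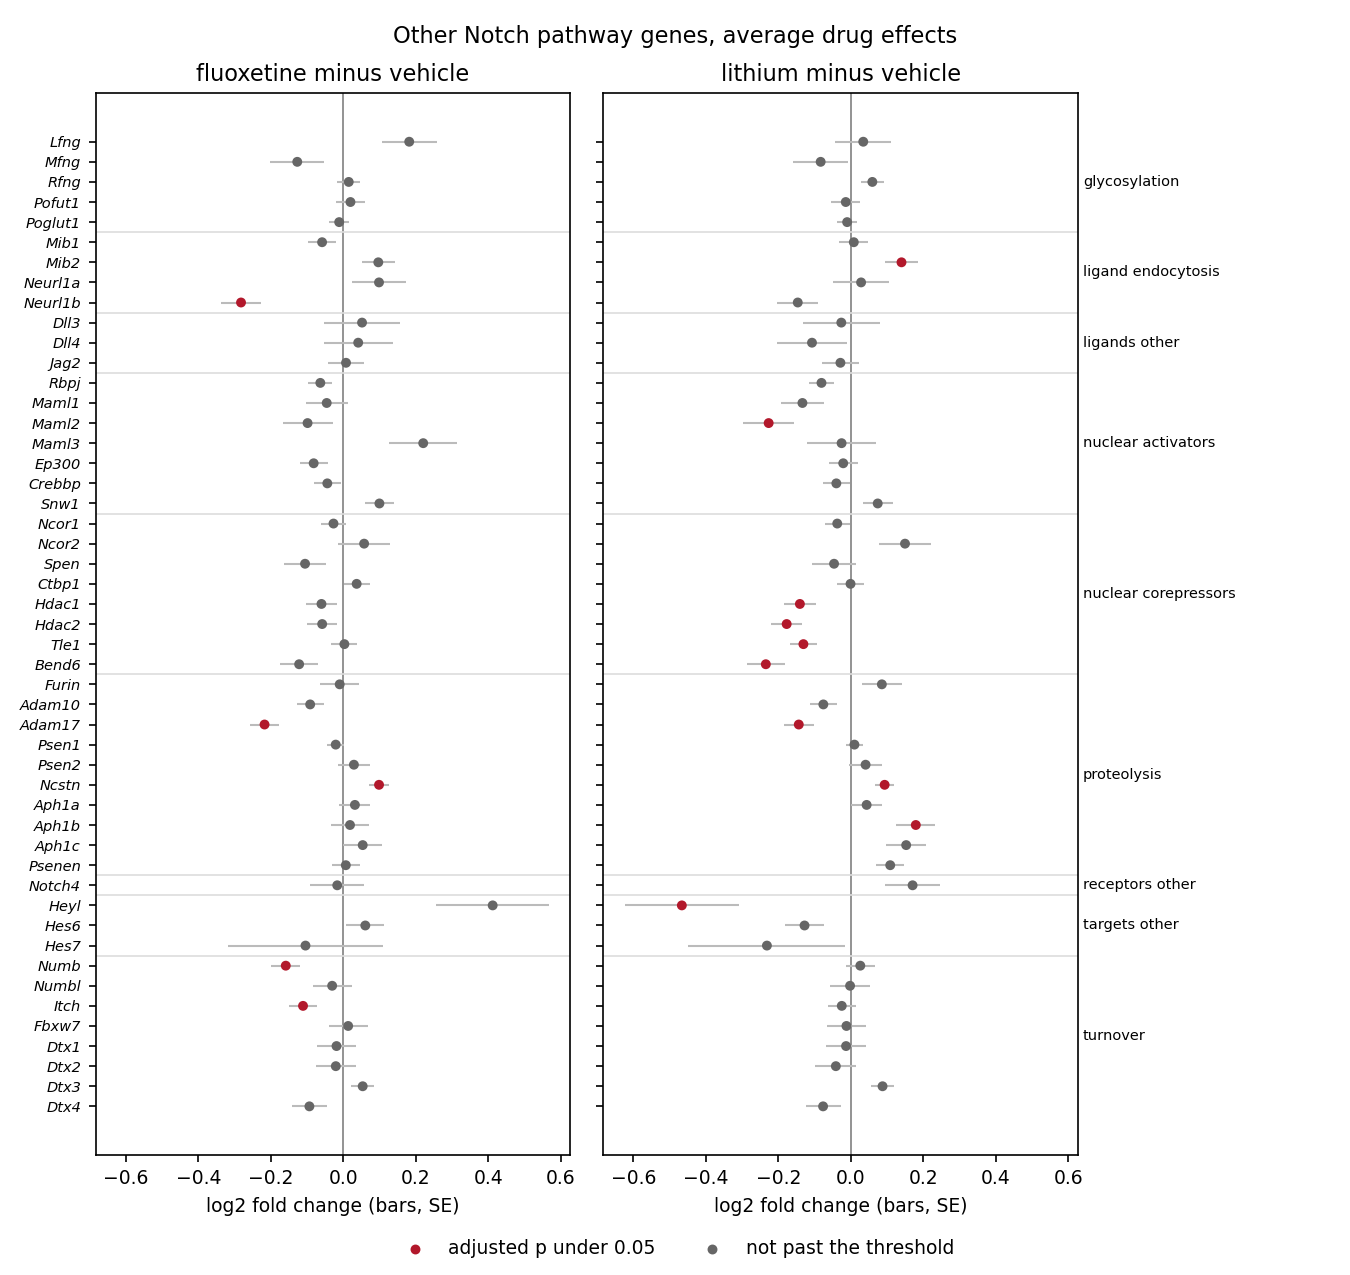
Average log2 fold changes with SE (bars) of the 49 other Notch pathway genes, fluoxetine against vehicle (left) and lithium against vehicle (right), grouped by role; red points passed an adjusted p under 0.05. Red points lie left of 0 for 4 of 8 corepressors with lithium, and for Adam17 with both drugs.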

How the data were processed

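Total RNA of the prefrontal cortex was sequenced after a stranded, poly(A)-selecting library kit, per the labels' protocols. Values in the deposited table are a signal, namely reads counted on a gene over the size factor of that library. Salmon 0.11.2, R 3.6.0, DESeq2 1.19.11 and GRCm38 are named in the submitters' processing notes; for the annotation and the strand setting, the sources used here give nothing. Dividing by the smallest step of each library gave whole reads for 100% of values (tolerance 0.01). Symbols were matched for 18077 genes.

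The 10 genes and all lists were chosen with earlier results of these data known. Genes that reached a normalised count of 10 in at least 5 libraries were tested (17875; 213 were not). The test was limma 3.58.1 (R 4.3.3, mean-variance trend, robust variances) on log2(normalised count + 1), which understates changes of low genes, with all 59 libraries in a single fit of 12 group means. Within each comparison, Benjamini-Hochberg adjustment ran over all tested genes, with a threshold of 0.05. Alternatives were edgeR 4.0.16 and DESeq2 1.42.0 on the recovered reads, another pseudocount (10), no filter, the replicate number as a block, only the compared libraries, removal of trends with GC content and length, and removal of single libraries or of the 2 that stood apart. The fit was tested on simulated data. On the recovered reads edgeR called 2369 genes for lithium and 2447 for fluoxetine. Named genes were the 10, up to 4 higher and 4 lower of the other pathway genes per comparison by p-value, and the 5 most like Nrarp by each measure. Sequencing reads of copied molecules are not independent.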

Additional observations from a re-analysis of the deposited data

Results flagged for a closer look

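In 12 of 120 sets of 4 or 5 libraries (10 genes in 12 groups), the highest or lowest library stood farther from the rest than Dixon's 95% limit; chance alone gives about 1 in 20 sets. No cause was tested for any of them.

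Among the receptors and ligands, Notch1 had 1166 normalised counts in HT vehicle female replicate 5, against 710.5 to 820.2 in the other 4 libraries of that group. Notch2 had 1250 in HT fluoxetine male replicate 2, against 560.1 to 744 in its group, and 506 in WT fluoxetine male replicate 2, against 663.5 to 707. Jag1 had 212 in HT lithium female replicate 1, against 153 to 162 in the other 3.

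Among the targets, Hes1 had 301.5 in WT fluoxetine male replicate 4, against 184 to 216. Hes5 had 417 in HT vehicle female replicate 5, against 218 to 257, and 109 in WT vehicle male replicate 2, against 257 to 285. Hey1 had 1687 in WT lithium female replicate 3, against 1366 to 1448, and 1824 in WT lithium male replicate 5, against 1359 to 1476. Hey2 had 379.7 in HT fluoxetine female replicate 4, against 145 to 205.5, and 305 in HT fluoxetine male replicate 2, against 134 to 183, and 110.2 in WT fluoxetine female replicate 3, against 177 to 193. HT vehicle female replicate 5 was high for both Notch1 and Hes5, and HT fluoxetine male replicate 2 for both Notch2 and Hey2. Nrarp had no such library in any group.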

How the results depend on the processing

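The count of the 10 genes called was 0 (limma, edgeR and DESeq2) under every alternative and single library left out for fluoxetine, genotype, sex and the 5 interactions. The lithium difference of Nrarp ran from -0.41 to -0.36. Values near 0 changed sign: Notch1 with lithium (trends of GC content and length removed -0.00529, single libraries left out -0.00326 to 0.0602), Hes5 with fluoxetine (edgeR -0.01043, DESeq2 -0.01074, trends of GC content and length removed -0.0499, without replicate 3 of the WT vehicle females and replicate 2 of the WT vehicle males -0.0726, single libraries left out -0.0552 to 0.0531), Notch2 with fluoxetine (without those 2 libraries -0.008; single libraries -0.0147 to 0.0851), Dll1 with fluoxetine (single libraries -0.00795 to 0.0851), and, for HT against WT, Nrarp (-0.0181 to 0.00455), Hes1 (-0.0284 to 0.00996) and Hey2 (edgeR 0.0103, DESeq2 0.0105; -0.0507 to 0.0248). Hey2 for female against male had -0.000899 with edgeR, -0.00196 with DESeq2 and -0.0212 to 0.0543. The cause was not tested. Over all genes, calls moved more than 1.5 times for HT against WT (64; DESeq2 104), sex (21; DESeq2 58, without HT fluoxetine male replicate 2 38), fluoxetine by genotype (7; 0 to 207, the last without WT vehicle male replicate 2), fluoxetine by sex (76; 5 to 178), lithium by genotype (0; DESeq2 5), lithium by sex (0; DESeq2 2) and genotype by sex (147; 0 to 562). Replicate numbers did not pair libraries: the mean correlation of residuals was -0.0112 for the same number and 0.0028 for different ones, and 4 of 59 libraries correlated best with their own number. With the replicate block, Nrarp with lithium was -0.38, Jag1 in fluoxetine females kept its call (adjusted p = 0.0285), no call of the 10 genes changed, and genotype by sex had 91 calls over all genes. All 10 genes had at least 87.0 normalised counts in each library, and the part of depth in their errors was not tested.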

Other observations

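Among vehicle females, 6 of the 49 other pathway genes differed between genotypes, where 6.2% of all genes were called; they are named here after their values were seen. Aph1b, a subunit of gamma-secretase, had 823, 1190.0, 970.2, 1262 and 1076 normalised counts in HT vehicle females, against 797, 788, 556, 775 and 827 in WT vehicle females. The lowest WT value, 556, is that of replicate 3, the library whose Ash1l level went against its label. Aph1b was higher in HT (log2 fold change 0.51 ± 0.11 SE, limma, adjusted p = 0.00566), as were its copy Aph1c (0.38 ± 0.11, adjusted p = 0.0279), the receptor protease Adam10 (0.25 ± 0.07, adjusted p = 0.0353), the ligase Itch (0.28 ± 0.08, adjusted p = 0.0227) and the corepressor Ncor1 (0.22 ± 0.07, adjusted p = 0.0488). Dll4, a ligand of vessel sprouts, had 84.7, 43.6, 90.0, 57.2 and 113 counts in HT vehicle females, against 116, 130, 148, 93.2 and 106 in WT vehicle females, and was lower in HT (-0.66 ± 0.19, adjusted p = 0.0287). Without WT vehicle female replicate 3, 0 of the 6 passed in limma. Aph1b then had 0.40 (adjusted p = 0.0636) and Dll4 -0.58 (adjusted p = 0.14). Without WT vehicle male replicate 2 as well, 1 of the 6 passed, Aph1b (adjusted p = 0.0417). WT vehicle female replicate 3 was highest of its group for Dll4. It was lowest for Aph1b, Aph1c (155.7), Adam10 (1998), Itch (1210) and Ncor1 (4448).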
